A study of Homo sapiens with 12 samples.

Results

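Expression of 10 genes for secreted or cell-surface factors that act on blood vessels was followed in AsPC-1 cells, an established human pancreatic cancer line. They are VEGFA, VEGFB, VEGFC, PGF, ADM, ANGPTL4, EDN1, PDGFB, NRP1 and EFNA1. The 10 genes were taken by symbol, through the Ensembl identifiers of the count files, from 57820 gene identifiers in all. Of these, 16999 genes passed the filter on low counts, 9 of the 10 among them. VEGFC did not pass, with 0 to 6 counts per library. The 14 VEGFA splicing events among 56092 events in the deposited splicing files were also read.

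The cells were transfected either with a control siRNA (siControl) or with an siRNA against ARNT (siARNT), using the same lipid reagent in every group. Each well was split, and its cells were then either held for 24 h at 1% O2 (hypoxia) or left at 21% O2 (normoxia). All cells were collected 48 h after transfection. This gave 4 groups of 3 libraries, lettered A, B and C, from either siRNA in either oxygen state. ARNT is the constant partner of the oxygen-regulated alpha subunits of hypoxia-inducible factor (HIF). The design asks which responses to low oxygen need it. The labels speak of wells in triplicate and do not name separate cultures, so p-values measure the spread between these libraries, which may be technical.

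As background, HIF alpha subunits are degraded when oxygen is plentiful. In low oxygen they pair with ARNT and bind short DNA elements near target genes, among which VEGFA, ADM and ANGPTL4 are long known. VEGF ligands signal through receptor tyrosine kinases on endothelial cells, with neuropilins as co-receptors. Adrenomedullin widens vessels and endothelin constricts them. Tumour cells can secrete such factors, which then act on nearby vessels.

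Expression was measured as polyadenylated RNA. Levels are CPM (a gene's counts per 1000000 counts of the library), scaled between libraries, and each mean is given ± SD over 3 libraries. Gene totals ran from 38525512 to 84337166 counts per library. ARNT was lowered in every siARNT library: it stood at 60.7, 63.6 and 63.0 CPM in normoxia siControl and at 13.3, 12.8 and 14.0 CPM in normoxia siARNT. In hypoxia it stood at 70.3, 64.9 and 72.2 CPM with siControl and at 16.0, 15.8 and 14.1 CPM with siARNT. All 8 ductal epithelial markers reached 1 CPM in every library, KRT7 as little as 1.1 CPM. None of the 7 endothelial and 5 leukocyte markers found in the files reached 1 CPM in every library. The endothelial markers CDH5, TIE1, TEK, KDR and ROBO4 were under 0.1 CPM in every library.

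The 3 genes with the largest hypoxic responses are shown with the 250 bases before a RefSeq transcription start, because HIF binds a short core element. Each window lies inside the span of its gene given below, which comes from GENCODE 29. Other annotated starts therefore lie further upstream. These are RefSeq promoter entries on GRCh38.p14, all on the plus strand: chr11:10304823-10305072 for ADM, chr19:8363905-8364154 for ANGPTL4 and chr1:155127626-155127875 for EFNA1. Capitals mark each match to ACGTG or GCGTG on either strand, so that a match on the other strand reads CACGT or CACGC.
ADM promoter: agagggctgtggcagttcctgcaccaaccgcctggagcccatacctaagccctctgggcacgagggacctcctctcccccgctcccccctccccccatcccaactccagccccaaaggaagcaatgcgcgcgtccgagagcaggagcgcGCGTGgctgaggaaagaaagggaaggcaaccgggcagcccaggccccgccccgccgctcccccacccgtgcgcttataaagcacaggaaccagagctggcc
ANGPTL4 promoter: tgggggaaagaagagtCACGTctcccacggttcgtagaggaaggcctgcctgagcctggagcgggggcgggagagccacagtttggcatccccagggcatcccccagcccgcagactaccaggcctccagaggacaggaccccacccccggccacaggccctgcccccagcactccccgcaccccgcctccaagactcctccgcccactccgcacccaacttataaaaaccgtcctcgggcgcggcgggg
EFNA1 promoter: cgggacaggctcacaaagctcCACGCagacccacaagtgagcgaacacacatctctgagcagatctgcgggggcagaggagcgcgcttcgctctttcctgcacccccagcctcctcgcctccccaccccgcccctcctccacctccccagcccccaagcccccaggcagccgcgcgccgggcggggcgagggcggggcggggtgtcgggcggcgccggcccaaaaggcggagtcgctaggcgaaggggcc
Each of the 3 windows held 1 match, beginning 101 bases before that RefSeq start in ADM, 234 in ANGPTL4 and 229 in EFNA1. Of all 35116 promoter entries of this length, 43.2% held at least 1 match. Of the 10 genes, 7 had entries, 10 in all, and 8 of these entries held a match. Among them were entries of VEGFB and PGF, which were not called under hypoxia in siControl cells, and of VEGFC, which was too low to test. VEGFA, PDGFB and NRP1 have no entry. A match of these letters is a description of the sequence and was not set against binding data.

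Hypoxia raised 5 of the 9 tested genes in siControl cells: ANGPTL4, ADM, EFNA1, VEGFA and EDN1. None fell. Over all genes tested, 25.3% were called in this comparison (adjusted p under 0.05), 10.4% as higher and 14.9% as lower. The median log2 change was 0.42 over the 9 genes and 0.02 over all genes tested. In 6 of the 9 genes the hypoxic and normoxic libraries did not overlap, against 46.8% of all genes tested. These are bulk libraries, so fewer cells of a type and less RNA per cell cannot be told apart.

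In siARNT cells the same exposure raised 2 of the 9 genes, EDN1 and NRP1, and lowered none, where 4.09% of all genes tested were called, 2.21% as higher and 1.89% as lower. With the transfected well as a block none of the 9 was called (EDN1 adjusted p 0.109, NRP1 0.0849), and single left-out libraries gave 0 to 2 calls, with none when any 1 of the normoxic libraries, hypoxia siControl A or hypoxia siARNT A or B was left out. In 3 of the 9 (VEGFA, EDN1 and NRP1) the libraries did not overlap, against 22.2% of all. The test of the difference between both responses called 5 genes, where 4.69% of all genes tested were called, 2.49% as higher and 2.19% as lower. The response was smaller with siARNT for ANGPTL4, ADM, EFNA1 and VEGFA and larger for NRP1. The comparisons share libraries, so their values are given side by side for each gene below, and the plot of changes shows them together.

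**Figure D1:**
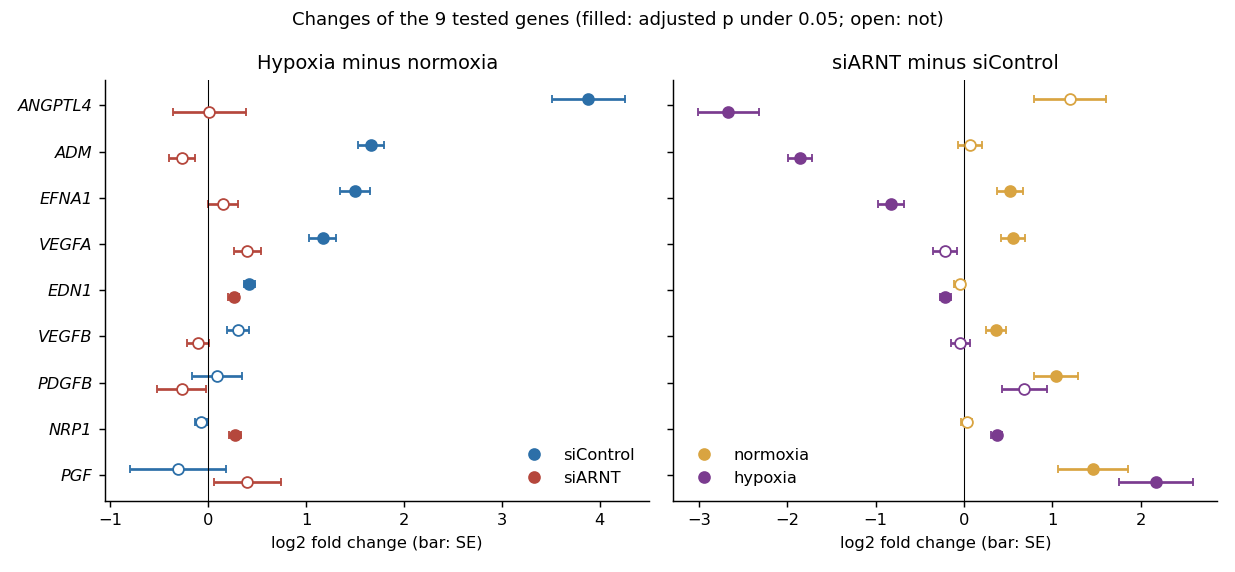
Log2 fold changes of the 9 tested genes with their SE, for hypoxia against normoxia (left, siControl and siARNT) and for siARNT against siControl (right, normoxia and hypoxia). Filled points passed the adjusted p threshold; ANGPTL4 lies at 3.88 under hypoxia with siControl and at 0.01 with siARNT.

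VEGFA, the main growth factor for endothelial cells, lies on chromosome 6 at 43770184 to 43786487, plus strand (ENSG00000112715.16). Its levels in normoxia siControl were 31.1, 35.5 and 30.6 CPM, a mean of 32.4 ± 2.70. In hypoxia siControl they were 75.1, 85.3 and 58.8 CPM, a mean of 73.1 ± 13.4. All 3 hypoxic libraries were above all 3 normoxic ones. This is a 2.25-fold rise (log2 fold change 1.17, SE 0.137, adjusted p 0.000104).

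With siARNT, VEGFA stood at 44.2, 54.6 and 44.0 CPM in normoxia (47.6 ± 6.10) and at 56.4, 62.8 and 69.5 CPM in hypoxia (62.9 ± 6.54). The lowest hypoxic library was just above the highest normoxic one, and the difference of 0.40 on the log2 scale (SE 0.135) did not pass the test, with an adjusted p of 0.116. After each library was corrected for GC content it did (0.51, adjusted p 0.000294). The response differed between both siRNAs by -0.77 (SE 0.191, adjusted p 0.0433). That call was lost under 11 of 22 alternative settings, in which the adjusted p reached 0.121.

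VEGFA was also higher with siARNT than with siControl already in normoxia, by 0.55 on the log2 scale (SE 0.136, adjusted p 0.0161), and the libraries did not overlap. Without normoxia siControl library A the adjusted p was 0.0683, and without library C it was 0.0712. In hypoxia the siRNA groups overlapped, with a difference of -0.22 (SE 0.135, adjusted p 0.26). It was called as lower when each library's dependence on gene GC content was removed (the GC correction; -0.26, adjusted p 0.00826) and without hypoxia siControl library C (-0.35, adjusted p 0.049). VEGFA exons overlap those of AL136131.3 on the other strand by 188 bases, and reads of both could be mixed, since the strand setting of the counting is not given in the sources used here.

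VEGFB, a relative of VEGFA with weak angiogenic activity of its own, lies on chromosome 11 at 64234538 to 64238793, plus strand (ENSG00000173511.5). It stood at 22.4, 25.7 and 24.6 CPM in normoxia siControl and at 28.8, 32.7 and 28.2 CPM in hypoxia siControl. The groups did not overlap, but the change of 0.30 (SE 0.112) missed the threshold at an adjusted p of 0.0685. It passed with the replicate letter as a block, at 0.0332. With the GC correction the change was 0.00 (adjusted p 0.997), and genes of like GC content had a median of 0.37. With siARNT it stood at 29.6, 36.6 and 27.4 CPM in normoxia and at 26.8, 28.7 and 31.8 CPM in hypoxia, groups that overlapped (-0.10, SE 0.112, adjusted p 0.632).

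PGF, placental growth factor, a ligand of the receptor FLT1, lies on chromosome 14 at 74941834 to 74955784, minus strand (ENSG00000119630.9). It was barely expressed, with 13, 17 and 6 counts in normoxia siControl and 11, 10 and 6 counts in hypoxia siControl. With siARNT it gave 44, 48 and 21 counts in normoxia and 29, 38 and 37 counts in hypoxia. The siARNT libraries exceeded every siControl library in both oxygen states. In CPM, the lowest siARNT library stood at 0.412 and the highest siControl library at 0.372.

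The rise of PGF with siARNT in hypoxia was 4.51-fold (log2 fold change 2.17, SE 0.42, adjusted p 0.00222) and was called under all 21 alternative settings that could test it. In normoxia the change was 1.46 (SE 0.399, adjusted p 0.0256). There the call was lost without normoxia siControl library A (adjusted p 0.114) or C (0.105), without normoxia siARNT library B (0.0812) and with only the groups compared in the fit (0.0617). Hypoxia itself gave -0.31 with siControl (SE 0.491, adjusted p 0.698) and 0.40 with siARNT (SE 0.343, adjusted p 0.534), both with overlapping groups. VEGFC, a ligand for lymphatic vessels on chromosome 4 at 176683538 to 176792727, minus strand (ENSG00000150630.2), gave 3, 0 and 0 counts in normoxia siControl and 2, 6 and 1 in hypoxia siControl. It gave 0 counts in all 3 normoxia siARNT libraries and 0, 1 and 0 in hypoxia siARNT, too few for any comparison.

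NRP1, neuropilin 1, is a co-receptor for VEGF ligands and class 3 semaphorins. It lies on chromosome 10 at 33177492 to 33336262, minus strand (ENSG00000099250.13), and overlaps AL121748.2 on the other strand by 561 exon bases. Its levels were 208, 217 and 219 CPM in normoxia siControl, 219, 215 and 223 in normoxia siARNT and 205, 188 and 220 in hypoxia siControl. These 3 groups overlapped one another. In hypoxia siARNT it stood at 276, 259 and 259 CPM, above every other library.

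With siARNT, hypoxia raised NRP1 by 0.27 on the log2 scale (SE 0.0614, adjusted p 0.0343), a call lost under 14 of 23 alternatives, in which the adjusted p reached 0.16. With siControl the change was -0.07 (SE 0.0614, adjusted p 0.449). The difference between the responses was 0.34 (SE 0.0868, adjusted p 0.046) and was lost under 13 of 22 alternatives, reaching 0.191. The comparison of siARNT with siControl in hypoxia was firmer: NRP1 was 1.29-fold higher (0.37, SE 0.0615, adjusted p 0.000789) under all 22 alternatives. Neuropilin 2 (NRP2), the one other tested gene of the VEGF list, fell in hypoxia with either siRNA, by 0.37 with siControl (adjusted p 0.00178) and by 0.43 with siARNT (adjusted p 0.0066). The VEGF receptors themselves were near zero, with FLT1 at 1 to 15 counts, KDR at 0 to 2 and FLT4 at 0 to 1.

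ADM encodes adrenomedullin, a peptide that widens vessels. It lies on chromosome 11 at 10304680 to 10307397, plus strand (ENSG00000148926.5). In normoxia it stood at 3.32, 3.26 and 3.19 CPM with siControl (3.26 ± 0.0624) and at 3.11, 4.13 and 3.04 CPM with siARNT (3.43 ± 0.612). In hypoxia it rose to 10.8, 10.3 and 9.87 CPM with siControl (10.3 ± 0.442) and stood at 2.74, 2.55 and 3.24 CPM with siARNT (2.84 ± 0.354). The 3 hypoxia siControl libraries stood alone, and the other 9 libraries lay between 2.55 and 4.13 CPM.

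The rise of ADM in siControl cells was 3.16-fold (1.66, SE 0.134, adjusted p 6.35e-06). With siARNT the change was -0.27 (SE 0.136, adjusted p 0.283), and the responses differed by -1.93 (SE 0.19, adjusted p 0.000197). In hypoxia ADM was 3.63-fold lower with siARNT (-1.86, SE 0.136, adjusted p 1.75e-06). These 3 calls held under every alternative tried. In normoxia the siRNA groups overlapped (0.07, SE 0.134, adjusted p 0.717).

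Around ADM, PAM, the enzyme that amidates adrenomedullin into its active form, rose in hypoxia with siControl by 0.35 (SE 0.074, adjusted p 0.00442). With siARNT its change was 0.25 (SE 0.074, adjusted p 0.0805). The receptor genes were low: CALCRL lay between 1.15 and 1.27 CPM as group means, RAMP2 gave 0 to 9 counts, and RAMP3 gave none. Of the 5 tested genes of the adrenomedullin system other than ADM, PAM was the one called under hypoxia and ADM2 the one called with siARNT in normoxia (0.70, SE 0.225, adjusted p 0.0476).

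EDN1 encodes endothelin 1, a strong constrictor of vessels. It lies on chromosome 6 at 12290363 to 12297194, plus strand (ENSG00000078401.6). Its libraries were tight, at 24.1, 24.3 and 24.2 CPM in normoxia siControl and 23.4, 23.7 and 23.2 CPM in normoxia siARNT. In hypoxia they stood at 32.6, 31.5 and 33.2 CPM with siControl and at 28.8, 28.6 and 26.4 CPM with siARNT. Every hypoxic library was above every normoxic one with either siRNA, and the hypoxia siControl libraries were highest.

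EDN1 rose 1.34-fold in siControl cells (0.42, SE 0.0589, adjusted p 0.000353), under all 23 alternatives. In siARNT cells it rose by 0.26 (SE 0.059, adjusted p 0.0366), a call lost under 12 of 23 alternatives, where the adjusted p reached 0.283. The difference between the responses, -0.16 (SE 0.0833, adjusted p 0.29), did not pass the test, though it did with the GC correction (-0.25, adjusted p 0.0126). In hypoxia EDN1 was 1.16-fold lower with siARNT (-0.21, SE 0.0589, adjusted p 0.0174), which was lost under 7 of 22 alternatives.

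The other endothelin ligands, EDN3 and EDN2, were also called. EDN3 went from 2.39 ± 0.357 to 7.18 ± 0.393 CPM in hypoxia with siControl, a log2 rise of 1.59 (SE 0.162, adjusted p 3.69e-05). With siARNT it went from 1.17 ± 0.0978 to 2.13 ± 0.474 CPM, a rise of 0.86 (SE 0.173, adjusted p 0.0238). EDN3 was lower with siARNT, at -1.02 in normoxia (SE 0.171, adjusted p 0.00205) and -1.75 under hypoxia (SE 0.165, adjusted p 1.2e-05). The difference of its responses, -0.74 (SE 0.236), did not pass the test, at an adjusted p of 0.103. EDN2 rose by 1.92 (SE 0.559, adjusted p 0.0249) on 2 to 16 counts. ECE1, the enzyme that cuts endothelin to its active form, was higher with siARNT both in normoxia (0.96, adjusted p 0.00534) and under hypoxia (0.76, adjusted p 0.00965). The receptors EDNRA and EDNRB gave 0 to 2 counts each.

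PDGFB, a growth factor for pericytes, lies on chromosome 22 at 39223359 to 39244751, minus strand (ENSG00000100311.12). It stood at 2.97, 3.78 and 3.08 CPM in normoxia siControl and at 3.23, 3.50 and 3.76 CPM in hypoxia siControl, groups that overlapped (0.09, SE 0.257, adjusted p 0.827). With siARNT it stood at 5.15, 9.30 and 5.79 CPM in normoxia and at 4.12, 4.94 and 7.72 CPM in hypoxia. All 6 siARNT libraries were above all 6 siControl libraries, and 2 of the siARNT libraries, normoxia B and hypoxia C, stood well above the rest.

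PDGFB was higher with siARNT by 1.04 in normoxia (SE 0.253, adjusted p 0.0154). Without normoxia siControl library A the adjusted p was 0.0723, and without library C it was 0.0672. In hypoxia the difference of 0.68 (SE 0.255) missed the threshold at an adjusted p of 0.0672 and passed it under 6 of 22 alternatives. Its homologue PDGFA rose with siARNT in normoxia by 0.39 (SE 0.0871, adjusted p 0.00938). The receptor PDGFRA gave 0 to 2 counts and PDGFRB gave 3 to 34.

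EFNA1 encodes ephrin A1, a membrane-anchored ligand of Eph receptors on neighbouring cells. It lies on chromosome 1 at 155127460 to 155134857, plus strand (ENSG00000169242.7). In siControl cells it stood at 12.9, 14.8 and 13.1 CPM in normoxia and at 38.2, 42.8 and 33.7 CPM in hypoxia. In siARNT cells it stood at 16.3, 24.3 and 17.4 CPM in normoxia and at 19.4, 20.8 and 24.2 CPM in hypoxia. The siControl groups were far apart, and the siARNT groups overlapped.

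The rise of EFNA1 in siControl cells was 2.82-fold (1.5, SE 0.151, adjusted p 3.62e-05), and with siARNT the change was 0.15 (SE 0.149, adjusted p 0.596). The responses differed by -1.35 (SE 0.211, adjusted p 0.00465). In hypoxia EFNA1 was 1.78-fold lower with siARNT (-0.83, SE 0.149, adjusted p 0.00133). The calls in siControl cells, of the difference and of siARNT in hypoxia held under every alternative tried. With siARNT, the GC correction gave a called hypoxic rise of 0.35 (adjusted p 0.000855).

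Among the other ephrins, EFNA3 rose in siControl cells by 1.61 (SE 0.218, adjusted p 0.000265) and EFNA5 by 0.56 (SE 0.0668, adjusted p 0.000125). EFNA2 rose by 0.39 (adjusted p 0.0141) and EFNA4 by 0.69 (adjusted p 0.0271). The response was smaller with siARNT for EFNA3 (-1.43, SE 0.316, adjusted p 0.028) and EFNA5 (-0.57, SE 0.0946, adjusted p 0.00652). EFNA3 lost that call under 8 of its 22 alternatives and EFNA5 under none. In all, 4 of the 14 tested genes of this list other than EFNA1 rose in siControl cells (10.4% of all genes tested) and none in siARNT cells (2.21% of all). EPHA2, a receptor of ephrin A1, was not called in any comparison, at group means of 65.2 to 88.8 CPM.

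ANGPTL4 encodes a secreted inhibitor of lipoprotein lipase that also acts on vessels. It lies on chromosome 19 at 8363289 to 8374373, plus strand (ENSG00000167772.7), and shares 1 exon base with RAB11B-AS1 on the other strand. Its levels in siControl cells were 0.242, 0.328 and 0.278 CPM in normoxia and 3.59, 5.41 and 3.39 CPM in hypoxia. The counts behind them were 18, 15 and 15, and 238, 252 and 158. In siARNT cells it stood at 0.351, 1.02 and 0.608 CPM in normoxia (30, 59 and 31 counts) and at 0.453, 0.656 and 0.852 CPM in hypoxia (24, 28 and 35 counts). The 3 hypoxia siControl libraries were apart from the other 9, of which the highest was at 1.02 CPM.

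ANGPTL4 rose 14.7-fold in siControl cells (3.88, SE 0.373, adjusted p 2.49e-05), the largest change of the 9 genes. With siARNT the change was 0.01 (SE 0.372, adjusted p 0.997), and its sign turned in 5 of 23 alternatives. The responses differed by -3.87 (SE 0.53, adjusted p 0.00201), and in hypoxia ANGPTL4 was 6.37-fold lower with siARNT (-2.67, SE 0.343, adjusted p 0.000127). In normoxia it was higher with siARNT in every library, by 1.2 (SE 0.408), at an adjusted p of 0.0569. With the letter block that adjusted p was 0.0209. With the GC correction the change was 0.49 (adjusted p 0.111), and without the 2 libraries of steepest GC slope, described below, it was 0.71 (adjusted p 0.201). Genes of GC content like that of ANGPTL4 (63.3%) had a median of 0.70.

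**Figure D2:**
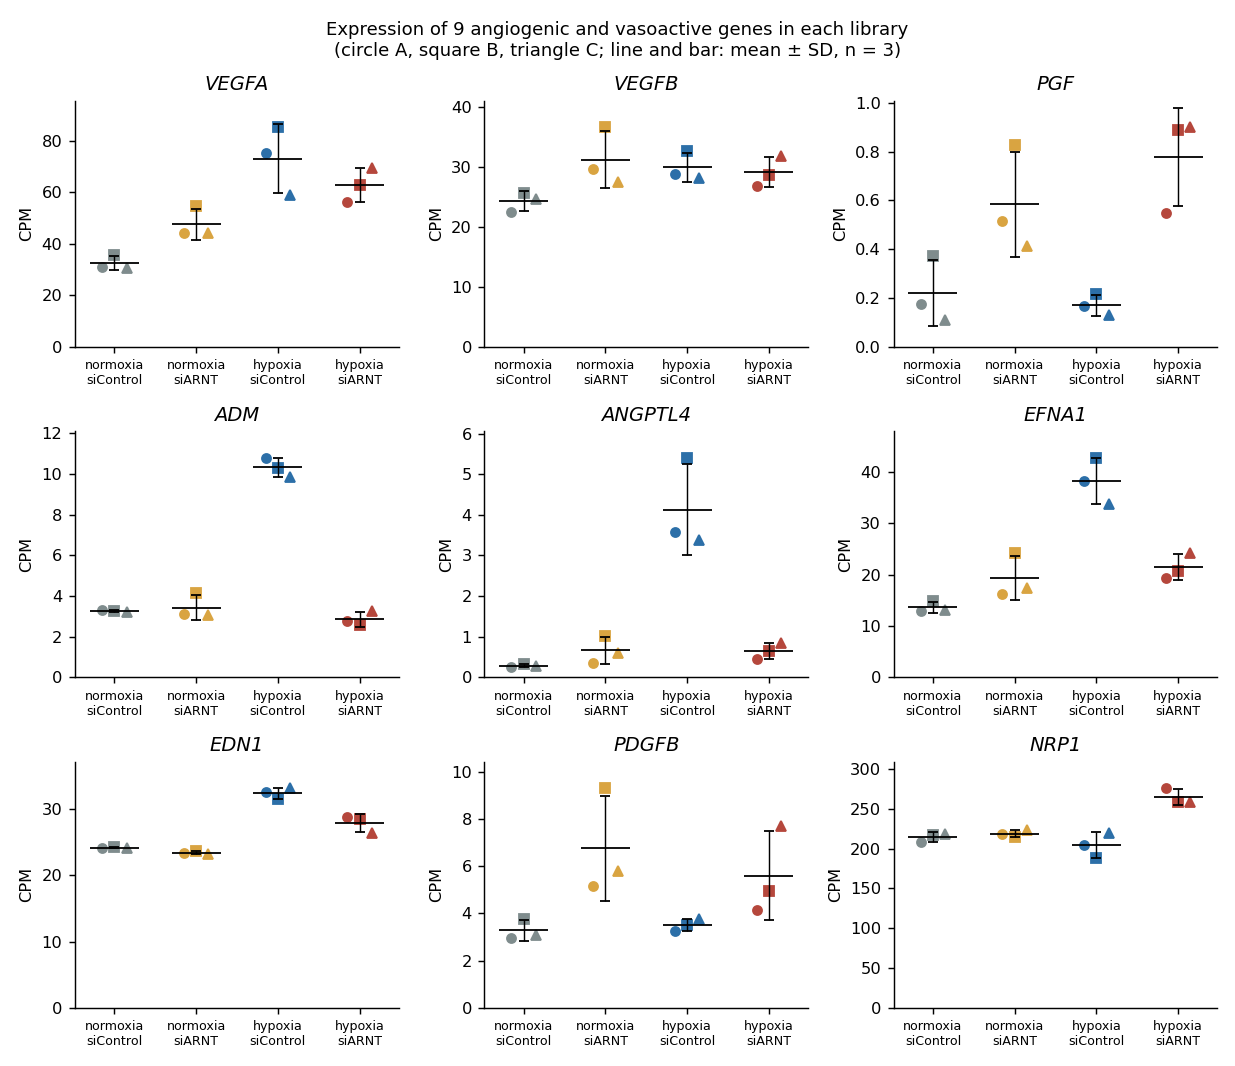
CPM of each of the 9 tested genes in every library (circle A, square B, triangle C) with mean and SD, by group. Hypoxia siControl stands alone for ADM and ANGPTL4, and for PDGFB all siARNT libraries lie above all siControl libraries.

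Some markers of cell types also changed with hypoxia. Of the ductal markers, MUC1 rose in siControl cells by 1.35 (adjusted p 5.64e-06) and its response differed with siARNT by -1.21 (adjusted p 0.000955), and CDH1 rose by 0.60 (adjusted p 6.35e-06) and differed by -0.42 (adjusted p 0.00517). The other 6 ductal markers were not called under hypoxia in siControl cells. With siARNT in hypoxia, MUC1 (-1.25, adjusted p 5.71e-06) and CEACAM6 (-0.57, adjusted p 9.56e-05) were lower, and the remaining ductal markers were not called. In normoxia CEACAM6 lay between 2620 and 2770 CPM with siControl and between 1890 and 1930 with siARNT. KRT8 lay between 1230 and 1470 CPM with siControl there and between 1890 and 3460 with siARNT. The fibroblast marker LUM was expressed in every library. It lay between 401 and 455 CPM in normoxia siControl, 335 and 406 in normoxia siARNT, 566 and 592 in hypoxia siControl and 365 and 467 in hypoxia siARNT. LUM rose in siControl cells by 0.44 (adjusted p 0.00546), and its response did not pass the test of the difference (-0.33, adjusted p 0.197). With siARNT in hypoxia LUM was lower (-0.49, adjusted p 0.00258), and no other tested fibroblast or mural marker was called there. Of the other fibroblast or mural markers none was called under hypoxia in siControl cells: ACTA2 changed by 0.21, RGS5 by -0.22, PDGFRB by -0.34 and DCN by 0.65 (adjusted p 0.0511), and COL1A1 and COL1A2 were too low to test. The summed level of all 7 fibroblast or mural markers ran from 406 to 459, 342 to 412, 572 to 598 and 371 to 473 CPM in the same order of groups, and 3 of the 7 (LUM, ACTA2 and RGS5) reached 1 CPM in every library. COL1A1 and COL1A2 were at most 0.195 and 0.219 CPM. The part of these markers in the responses above was not tested.

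With siARNT in normoxia, 5 of the 9 genes rose (VEGFA, VEGFB, PGF, PDGFB and EFNA1) and none fell, where 20.2% of all genes tested were called, 9.42% as higher and 10.8% as lower. The median log2 change was 0.52 over the 9 genes and 0.01 over all. In 7 of the 9 genes the libraries of both siRNAs did not overlap, against 46.5% of all genes. With siARNT in hypoxia, 2 genes rose (PGF and NRP1) and 4 fell (ADM, ANGPTL4, EDN1 and EFNA1), where 29.1% of all genes were called, 14.4% as higher and 14.7% as lower. The median was -0.21 over the 9 genes and 0.02 over all. In 7 of the 9 the libraries did not overlap, against 40.3% of all genes.

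The slope of a library's expression on the GC content of genes was 0.423 (log2 per 10 GC points) in normoxia siARNT library B and 0.242 in hypoxia siARNT library C, and between -0.209 and 0.122 in the other 10. The GC content of the 9 genes ran from 44.7% in NRP1 to 66.7% in VEGFB. Genes of GC content like that of VEGFB (66.7%) had a median change of 0.86 with siARNT in normoxia, where VEGFB itself changed by 0.36 (SE 0.112, adjusted p 0.0403). Genes of GC content like that of EFNA1 (58.5%) had a median of 0.37, where EFNA1 changed by 0.52 (SE 0.15, adjusted p 0.0326). For PDGFB (60.6%), which changed by 1.04, the median was 0.49. For VEGFA (54.6%) the median was 0.18 and for PGF (54.9%) 0.19.

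With the GC correction VEGFA (0.37, adjusted p 0.0016), PGF (1.26, adjusted p 0.00724) and PDGFB (0.52, adjusted p 0.00326) were still called as higher. EFNA1 was not (0.13, adjusted p 0.119), and VEGFB turned to -0.42 (adjusted p 0.239). NRP1 was newly called as higher (0.13, adjusted p 0.0195), against 0.03 (adjusted p 0.764) without the correction. Without the 2 libraries of steepest slope, 2 of the 9 genes were called: VEGFA (0.43, adjusted p 0.0356) and PDGFB (0.73, adjusted p 0.00304). Without normoxia siControl library A none was called, and likewise without library C. By contrast, the same 5 genes were called under hypoxia in siControl cells with the GC correction, and these and VEGFB without the 2 libraries.

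**Figure D3:**
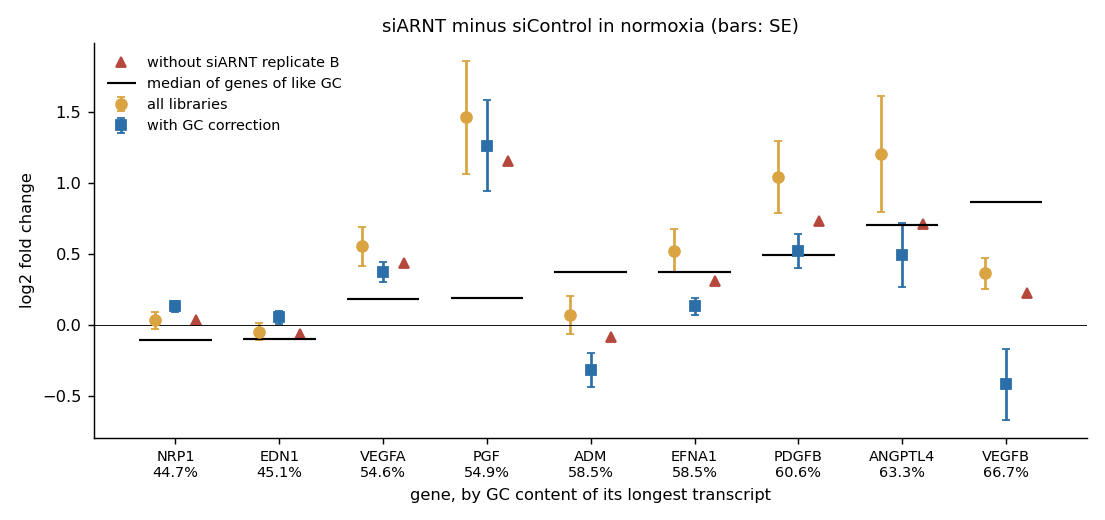
Log2 change with siARNT in normoxia for each of the 9 tested genes, ordered by GC content, with all libraries, with the GC correction (both ± SE) and without normoxia siARNT library B, beside the median of all tested genes of like GC content (black line). VEGFB, at 66.7% GC, lies below its line of 0.86, while VEGFA and PGF lie above theirs.

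Per kilobase of exon, the order of the levels in normoxia siControl was NRP1 (18.6 CPM per kb), VEGFB (15.7), EDN1 (11.9), EFNA1 (5.34), VEGFA (2.25), ADM (1.2), PDGFB (0.872), ANGPTL4 (0.114), PGF (0.0368) and VEGFC (0.00555). In hypoxia siControl VEGFB stood at 19.3 and NRP1 at 17.7, with ranges of 18.2 to 21.2 and 16.3 to 19.1 that overlapped. EDN1 (15.9) and EFNA1 (15.1) also overlapped there, with ranges of 15.5 to 16.3 and 13.3 to 16.9. ANGPTL4 rose above PDGFB in that group, with 1.66 against 0.929 CPM per kb. The order depends on the length used: with the longest transcript in place of all exons, NRP1 was first in every group and EFNA1 (19.8) stood above EDN1 (15.9) in hypoxia siControl. The exons of VEGFA sum to 14431 bases, of which the longest transcript holds 12167.

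**Figure D4:**
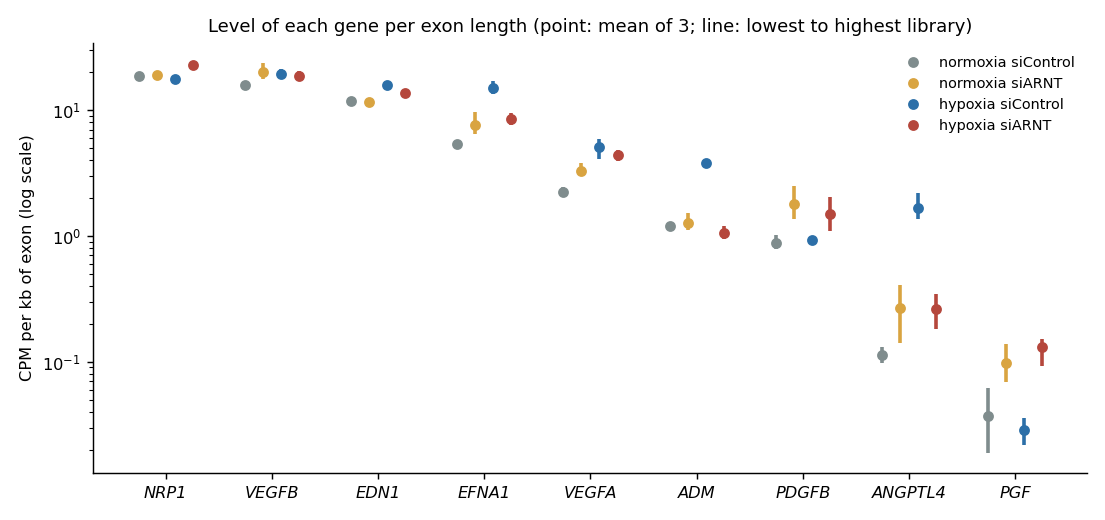
Level of each tested gene per kilobase of exon on a log axis, as the mean of 3 libraries with the lowest and highest library, in the 4 groups. NRP1, VEGFB and EDN1 lie highest, and ANGPTL4 spans the widest range between groups, from 0.114 to 1.66 CPM per kb.

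The VEGFA transcript is spliced in ways that change its protein: exons 6a and 7 encode the parts that hold VEGF to heparin and the cell matrix, and the choice of acceptor in exon 8 sets the last residues. These exons are shown because the deposited events turn on them. They are on chromosome 6, plus strand, GRCh38: exon 6a at chr6:43780732-43780803, exon 7 at chr6:43781956-43782087 and the coding starts of exon 8 at chr6:43784541-43784562 (proximal acceptor) and chr6:43784607-43784628 (distal acceptor). Capitals mark the last 18 bases of exon 6a, absent from a 54-base form, the last 35 bases of exon 7, absent from a 97-base form, and the stop codon in exon 8.
exon 6a: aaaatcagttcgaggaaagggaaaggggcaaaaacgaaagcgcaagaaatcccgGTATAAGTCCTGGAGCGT
exon 7: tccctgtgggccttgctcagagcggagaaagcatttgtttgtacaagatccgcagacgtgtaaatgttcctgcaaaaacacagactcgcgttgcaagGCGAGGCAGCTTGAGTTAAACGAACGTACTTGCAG
exon 8, proximal acceptor: atgtgacaagccgaggcggTGA
exon 8, distal acceptor: atctctcaccaggaaagacTGA
The event files name no genome build and their positions are not those of GRCh38, so the exons were matched by their lengths and spacings, and all 9 quantities compared were the same.

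Inclusion is given as the percent of an event's reads that include the sequence. For a skipped exon, the including reads are the mean over the junctions on both sides of it. Read numbers of such events use that mean, rounded. The exon 6a event sets exon 6a, between exons 5 and 7, against a direct splice from exon 5 to exon 7. Reads that join exon 5 to exon 8 (81, 47 and 42 in normoxia siControl) are outside this event. Its percent is therefore not a share of all VEGFA transcripts. Exon 6a was included in 29%, 29% and 19% of reads in normoxia siControl and in 18%, 18% and 17% in hypoxia siControl. It was included in 19%, 17% and 18% in normoxia siARNT and in 19%, 14% and 14% in hypoxia siARNT. Normoxia siControl libraries A and B were highest, while library C lay within the range of both siARNT groups, so that normoxia siControl overlapped them and stood above hypoxia siControl only. Each library gave 68 to 216 reads at this choice. The change in siControl cells was -0.66 in log2 odds (SE 0.26, p 0.0261), with an adjusted p of 0.863.

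The exon 7 event sets exon 7, between exon 5 and the proximal exon 8 acceptor, against a direct splice from exon 5 to that acceptor. Reads that join exon 6a to exon 7, or exon 7 to the distal acceptor, are not counted in it. Its percent is therefore not a share of all VEGFA transcripts either. Exon 7 was included in 36%, 47% and 52% of reads in normoxia siControl and in 48%, 55% and 52% in normoxia siARNT. In hypoxia it was included in 44%, 49% and 41% with siControl and in 49%, 57% and 56% with siARNT. Each library gave 87 to 310 reads at this event. The siControl groups overlapped, and the hypoxic siRNA groups touched at 49%. The distal exon 8 acceptor took 20%, 3% and 19% of reads in normoxia siControl, 7%, 5% and 4% in normoxia siARNT, 9%, 8% and 6% in hypoxia siControl and 10%, 10% and 7% in hypoxia siARNT, on 31 to 106 reads. Its normoxia siControl libraries spread over the whole range of the other groups, and the lower share with siARNT in normoxia (-1.52 log2 odds, SE 0.619, p 0.0305) had an adjusted p of 0.599. Exon 5 was included in 99%, 99% and 98% of reads in normoxia siControl and in 94% to 97% in the other groups. The reads that skip it were few, 4 over the normoxia siControl libraries and 25 over those of hypoxia siControl. By the edgeR test its change was -1.47 in log2 odds for hypoxia in siControl cells (p 0.0268, adjusted p 0.865) and -1.44 for siARNT in normoxia (p 0.0403, adjusted p 0.634).

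**Figure D5:**
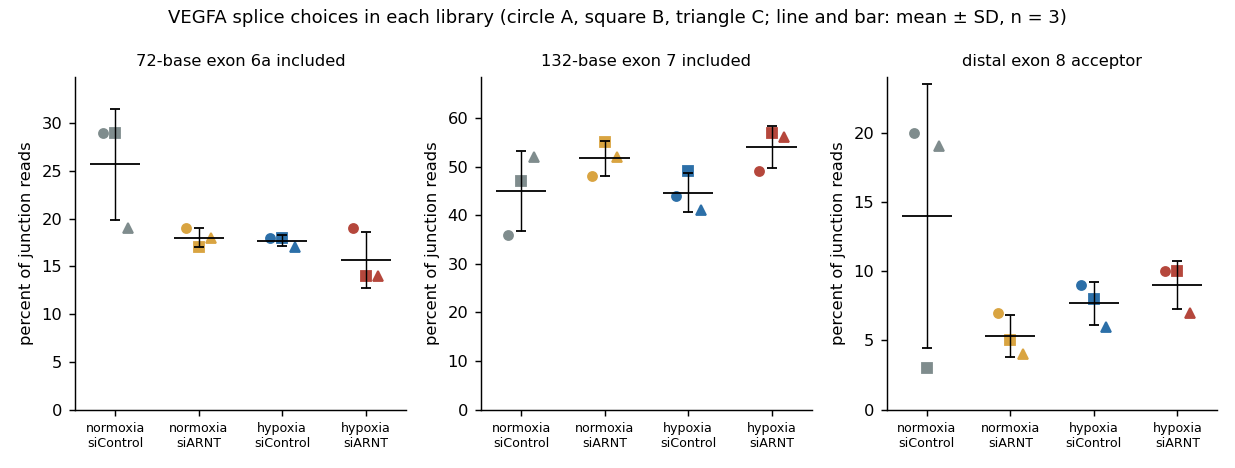
Percent inclusion at the exon 6a event, the exon 7 event and the distal exon 8 acceptor event of VEGFA in every library, with mean and SD by group. Normoxia siControl spreads from 3% to 20% at the distal acceptor, and no difference between groups passed the test.

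None of the 13 tested VEGFA events was called in any comparison by edgeR's quasi-likelihood test. The events share junctions and are not independent of one another. An alternative acceptor and multiple exon skips among those counted below hold the same few reads that skip exon 5. Of all 40330 events tested, 0.0223% were called under hypoxia in siControl cells, 0.0% in siARNT cells, 0.126% with siARNT in normoxia, 0.062% with siARNT in hypoxia and 0.0% for the difference of responses. At an unadjusted p under 0.05 there were 5 VEGFA events under hypoxia in siControl cells (5 by limma, 5.43% of all events) and none in siARNT cells (4.52% of all). There were 4 with siARNT in normoxia (5 by limma, 7.64% of all), 2 with siARNT in hypoxia (none by limma, 6.12% of all) and none for the difference (4.06% of all). The lowest adjusted p of these events was 0.599. The 12 events of VEGFB, EDN1, NRP1 and EFNA1 gave 11 tested and none called, with 2 at an unadjusted p under 0.05 under hypoxia in siControl cells, 2 with siARNT in hypoxia (the same numbers by limma) and none in the other comparisons.

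The wider pathway lists held 133 genes other than the 10, of which 81 could be tested. Under hypoxia in siControl cells 16 rose and 8 fell, where 10.4% of all genes tested were called as higher and 14.9% as lower, with a median of 0.21 against 0.02 over all. In siARNT cells 3 rose and 5 fell, where 2.21% and 1.89% of all were called as higher and lower. For the difference of responses 2 were higher and 5 lower, where those shares of all genes were 2.49% and 2.19%. Those lower were EFNA3, EFNA5, ANG (angiogenin), BDKRB2 (the bradykinin B2 receptor) and PTGIS (prostacyclin synthase), and those higher were CCN2 and SPRY1. BDKRB2 rose in siControl cells by 0.64 (SE 0.0683, adjusted p 5.43e-05) and its response differed with siARNT by -0.64 (SE 0.0966, adjusted p 0.00381).

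Genes of the same lists also fell. FGFBP1, which releases fibroblast growth factor from the matrix, fell under hypoxia by 0.67 with siControl (adjusted p 2.83e-05) and by 0.86 with siARNT (adjusted p 0.000175). ANGPTL1, a relative of ANGPTL4, fell by 1.64 in siControl cells (adjusted p 0.0204) on 3 to 24 counts. With siARNT in normoxia 26 of the 81 rose and 5 fell, where 9.42% of all genes were called as higher and 10.8% as lower, with a median of 0.36 against 0.01 over all. In this comparison the medians of genes of like GC content ran from -0.11 for NRP1 to 0.86 for VEGFB. GC-corrected values are not given for the other genes of the lists, ADM2, ECE1 and PDGFA among them, and the part of GC content in their calls was not tested. With siARNT in hypoxia 13 rose and 11 fell, where the shares of all genes were 14.4% and 14.7%. TIMP2, an inhibitor of matrix proteases and of vessel growth, rose with siARNT by 0.61 at normal oxygen (adjusted p 2.28e-05) and by 0.64 at low oxygen (adjusted p 4.65e-06).

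The genes most like each member were sought among 9688 genes by the distance between their log2 changes in 3 comparisons (hypoxia with either siRNA, and siARNT in normoxia). The nearest to ANGPTL4 were CA9 (distance 0.72), EGLN3 (1.53) and ENO2 (1.77). The nearest to ADM were APOL2 (0.04), which changed by 1.65, -0.24 and 0.10, C8orf58 (0.31) and C4orf3 (0.37). The nearest to EFNA1 were KDM4B (0.27), DDIT4 (0.29) and PLXNA3 (0.31), and the 3 nearest to VEGFA were AOAH, HEPH and PPP1R3B (0.20 each). For PGF they were PABPC4 (0.38), DACT1 (0.55) and GAS6 (0.59). The nearest to VEGFB were MTG1, SOX13 and FBXO41 (0.02 to 0.04), to EDN1 XYLT1, PARP4 and FRMD3 (0.04 to 0.06), to PDGFB SELENBP1, LMAN2 and PCNX3 (0.06 to 0.11) and to NRP1 CCSER1, DNMBP and MTERF2 (0.05 to 0.09).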

How the data were processed

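Gene counts and splicing events were deposited for 12 libraries. The counts are whole numbers per Ensembl gene; per the submitters' processing notes Trimmomatic, STAR 2.4.2a and GRCh38.p10 were used. The splicing files give inclusion and exclusion read counts and an inclusion fraction per event, as deposited by the authors; the fraction was recomputed from the counts within 0.01. The deposited files also hold mean coverage of exons, per the file headers, which was not used. Lines that name no gene held 22.71 to 25.2% of reads and were left out.

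Symbols came from a separate list that matches Ensembl identifiers to gene names. Positions, lengths and GC content came from GENCODE 29 (GRCh38). The test of gene counts was that of edgeR 4.0.16 in R 4.3.3, after filterByExpr by group, TMM scaling and a robust quasi-likelihood fit to all 12 libraries, 1 mean per group, Benjamini-Hochberg adjustment over 16999 genes, threshold 0.05. The GC content was known for 97.27% of them. CPM used the TMM-scaled totals. The alternatives were RLE and total count scaling, DESeq2 1.42.0, other filters, only the groups compared, blocks, a GC correction and leaving out each library. Procedures were tested on simulated data.

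Events with at least 20 reads in every library were tested with edgeR on inclusion against exclusion counts within a library. A first version with estimated negative binomial dispersions recovered nothing in simulated data; it was replaced, after its results were seen, by one with that dispersion at 0, and is kept as an alternative. limma 3.58.1 was a further alternative. Leaving out the 2 libraries of steepest GC slope, the comparison with genes of like GC content and the removal of genes without a symbol from the search for like genes were also chosen after seeing the data.

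The main tests used no block. For the letter block, a comparison met the rule for pairing where each same-letter correlation of deviations from the group means was over 0.1. These were 0.51, 0.74 and 0.50 for hypoxia in siControl cells and 0.70, 0.88 and 0.38 for siARNT in normoxia. Libraries of different letters ran from -0.62 to 0.41 and from -0.85 to 0.76 in the same 2 comparisons, so the rule does not show that a letter pairs libraries. The labels do not say what a letter shares. No pair of replicates had identical counts (chi-square per degree of freedom 3.95 to 79.5).

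The text names the 10 genes, genes of the pathway lists called with an absolute log2 change of 1 or more for hypoxia in siControl cells or for the difference of responses, the receptors of each ligand, and the 3 nearest genes by change. Other genes of the lists (NRP2, PAM, ADM2, ECE1, PDGFA, EFNA2, EFNA4, EFNA5, ANG, BDKRB2, PTGIS, CCN2, SPRY1, FGFBP1 and TIMP2) were picked after their values were seen. The 10 genes and the lists were chosen with earlier results of these data known.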

Additional observations from a re-analysis of the deposited data

Results flagged for a closer look

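For 5 genes the response to hypoxia differed between siARNT and siControl cells by the test of that difference. On the log2 scale the response with siARNT minus that with siControl was -3.87 for ANGPTL4, -1.93 for ADM, -1.35 for EFNA1, -0.77 for VEGFA and 0.34 for NRP1. The calls of ANGPTL4, ADM and EFNA1 held under all 22 alternatives, that of VEGFA under 11 and that of NRP1 under 9.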

How the results depend on the processing

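The hypoxic rises of VEGFA, ADM, ANGPTL4, EDN1 and EFNA1 in siControl cells were called under all 23 alternatives. With the GC correction, and with it and the replicate block together, the genes called in all were 7267 and 7513 (4299 without) for hypoxia in siControl cells, 3670 and 3916 (696) for hypoxia in siARNT cells, 5557 and 5930 (3431) for siARNT in normoxia, 7830 and 8083 (4948) for siARNT in hypoxia and 3143 and 3392 (797) for the difference of responses. Total count scaling called 1495 genes for that difference, 1125 higher and 370 lower, against 424 and 373. It called 3473 higher and 1973 lower for siARNT in hypoxia, against 2452 and 2496, and 634 higher and 330 lower for hypoxia in siARNT cells, against 375 and 321. With only the groups compared, 22 genes were called for hypoxia in siARNT cells. Without the 2 libraries of steepest GC slope, 1612 were called for the difference.

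Of the 9 genes, hypoxia in siARNT cells called 0 with no filter on low counts, 0 with only the groups compared, 4 with the GC correction with or without the block and 1 without the 2 libraries. With siARNT in normoxia 2 were called with only the groups compared and 2 without the 2 libraries. Leaving out 1 library at a time called 5 to 6 of them for hypoxia in siControl cells, 0 to 2 for hypoxia in siARNT cells, 0 to 6 for siARNT in normoxia, 5 to 7 for siARNT in hypoxia and 3 to 5 for the difference. The genes called in all then ranged from 2873 to 5242, 129 to 707, 1571 to 4148, 3537 to 5847 and 272 to 1188 in the same order. No VEGFA event was called under any alternative or without any library, and the lowest adjusted p was 0.24.

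For the replicate block, the letters did not pair the libraries for hypoxia in siARNT cells (correlations 0.91, -0.12 and -0.85) or for siARNT in hypoxia (0.68, -0.09 and -0.72). The letter as a replicate block called 862 and 5425 genes there, and PDGFB passed for siARNT in hypoxia (0.65, adjusted p 0.0422). In the comparisons that met the rule for pairing, the block moved no call of the 9 genes other than those of VEGFB and ANGPTL4 given above. The transfected well as a replicate block called 136 genes and 0 of the 9 for hypoxia in siARNT cells, and 373 genes for the difference.

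Directions turned 32 times, in values of which 2 were called as reported, both VEGFB with siARNT in normoxia (-0.42 with the GC correction, -0.44 with the block too). The GC correction, alone and with the block, also gave 0.00 and -0.01 for VEGFB, -0.07 and -0.07 for PDGFB and 0.01 and 0.01 for NRP1 under hypoxia in siControl cells; 0.24 and 0.26 for VEGFB in siARNT cells; -0.32 and -0.31 for ADM (adjusted p 0.0171 with the block) and 0.05 and 0.04 for EDN1 with siARNT in normoxia; and, for the difference, 0.24 and 0.26 for VEGFB and 0.03 and 0.02 for PDGFB. Under hypoxia in siControl cells PGF ranged from -0.59 to 0.20 as single libraries were left out, the latter without normoxia siControl B. Under hypoxia in siARNT cells, without normoxia siARNT B, VEGFB and PDGFB were 0.03 each (lowest values with 1 library left out -0.19 and -0.57). ANGPTL4 there reached 0.49 without normoxia siARNT B and was -0.01 with no filter, -0.34 and -0.03 without normoxia siARNT A and C, and -0.01 and -0.23 without hypoxia siARNT B and C. With siARNT in normoxia, ADM ranged from -0.09, without normoxia siARNT B, to 0.15 and was -0.09 without the 2 libraries, and NRP1 was -0.01 without normoxia siControl A. With siARNT in hypoxia, VEGFB was 0.04 with total count scaling, 0.01 without hypoxia siControl B and 0.02 without hypoxia siARNT A (lowest -0.11). The cause of these changes was not tested. PGF, ANGPTL4 and the splicing choices rest on the fewest reads.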
